A study of Mus musculus with 16 samples.

Results

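The heat shock protein and chaperone genes were examined in mouse cerebellum across 4 groups that differ in Atm genotype and in nicotinamide riboside (NR). The members were all genes whose symbol begins with Hspa, Hspb, Hsp90, Hspd, Hspe, Hsph, Dnaja, Dnajb or Dnajc and goes on with a family letter or number, so that the unrelated binding partners Hspbp1 and Hspbap1 were left out. They came to 71 genes with 125 probes, among 56605 probes on the array of which 32994 carried a gene name. A probe was kept for testing when some group had it well above background on each of its 4 arrays, which left 118 member probes for 66 genes among 37253 probes in all. The 7 probes that were not kept were those of Dnajb7, Dnajb13, Dnajc5b, Dnajc5g and Dnajc22, which had no other probe, and 1 probe each of Hspb7 and Dnajb11. Of the 118 kept probes, 113 were well above background on all 16 arrays.

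RNA from cerebellar cortex was taken from 16 mice, 4 in each group, aged 3.5 months. All mice came from the B6;129S4-Atmtm1Bal/J line and were labelled male. The knockout mice (Atm-/-) carried the targeted allele homozygously in every tissue, and the wild-type (WT) mice were their littermates. In the groups WT NR and Atm-/- NR the drinking water held 3.5 mg/ml (12 mM) NR for 2 months, and in the groups WT veh and Atm-/- veh it held none. NR is a precursor of NAD+, and ATM is the kinase that answers DNA double-strand breaks.

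Chaperones bind unfolded protein chains and keep them from aggregating until they fold or are degraded. Hsp70 proteins (Hspa) do this in cycles of ATP hydrolysis that J proteins (Dnaja, Dnajb, Dnajc) start and that nucleotide exchange factors such as Hsp110 (Hsph) end, while Hsp90 proteins finish selected clients and the Hspd and Hspe chaperonin forms a folding cage in mitochondria. Heat shock factor 1 switches on the cytosolic members under heat or proteotoxic stress, through copies of the heat shock element, and the unfolded protein response switches on those of the endoplasmic reticulum (ER), through the ER stress element. Neurons also use Hsc70 (Hspa8) with specialised J proteins to recycle synaptic vesicles.

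Promoters that carry these 2 elements mark members with a textbook binding sequence close to the start of the gene. Those of Hspe1, Dnajb6, Hspa5 and Dnajc3 are shown. RefSeq promoter sequences of build GRCm38.p6, from 250 bases before to 50 bases after the start, were at hand for 57 of the 71 genes. The heat shock element was searched as GAA, TTC and GAA in this order with 2 free bases between neighbours, and the ER stress element as CCAAT and CCACG with 9 free bases between them, each on both strands. The first was found in 4 of the 57 member genes (Dnajb6, Hspd1, Hspe1 and Hsph1, or 7.02%) and in 0.662% of all 27025 genes with a promoter in the table. The second was found in 3 of the 57 (Dnajc3, Hsp90b1 and Hspa5, or 5.26%) and in 0.137% of all these genes. Only exact matches were counted. Hspa1a, Hspa1b, Hspb1, Dnaja1 and Dnajb1, listed below among the heat shock factor 1 targets, had a promoter but no match. A missing match therefore does not mark a missing site. The stretches below run 5′ to 3′ on the strand of the gene named, with the fixed bases of the element in capitals.
Hspe1, chr1:55088044-55088091, plus strand: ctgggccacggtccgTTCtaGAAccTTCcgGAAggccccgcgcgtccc
Dnajb6, chr5:29735837-29735879, plus strand: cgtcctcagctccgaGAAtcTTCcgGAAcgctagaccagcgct
Hspa5, chr2:34772010-34772058, plus strand: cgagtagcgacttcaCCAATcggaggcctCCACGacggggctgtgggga
Dnajc3, chr14:118937812-118937860, plus strand: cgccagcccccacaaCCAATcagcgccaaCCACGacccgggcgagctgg
The Hspe1 stretch holds 2 overlapping matches and is also the Hspd1 promoter read from the other strand, since both genes start from it in opposite directions. Of the 16 genes called between Atm-/- NR and Atm-/- veh below, 12 had a promoter in the table, and 2 of them (Dnajb6 and Hspe1) held the heat shock element, while none held the ER stress element.

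The arrays themselves limit what the groups can show. Every WT array lay on one slide and every Atm-/- array on another, so a genotype difference cannot be told apart from a slide difference. Each NR comparison lies within 1 slide, with the veh arrays in one row and the NR arrays in the other. An NR difference therefore cannot be told apart from a difference between rows of the slide. Arrays of a group correlated at 0.975 to 0.991 over the kept probes. One Atm probe was lower in Atm-/- veh than in WT veh by 0.87 on the log2 scale (limma adjusted p = 3.17e-04), with every Atm-/- veh array between 7.91 and 8.08 and every WT veh array between 8.63 and 9.03. The second Atm probe differed by −0.35 (adjusted p = 0.221), and whether either probe lies within the deleted part was not known. Although the labels give male mice, Y-linked genes were not above background on 4 arrays, which were Atm-/- NR 4, Atm-/- veh 3 and replicates 1 and 4 of WT NR. WT veh 4 stood apart for choroid plexus genes, with a mean deviation of 5.41 on the log2 scale over 5 genes, where the other 15 arrays lay between −1.42 and 0.67, and Atm-/- veh 3 for red blood cell genes at 2.33.

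The main change among the chaperones was between NR-treated and untreated Atm-/- mice. In that comparison 16 of the 118 member probes were called at an adjusted p under 0.05 (13.6%), against 3366 of all 37253 kept probes (9.04%). They split into 14 higher probes, or 11.9% against 4.56% of all probes, and 2 lower ones, or 1.69% against 4.48%. The called rises were in 14 different genes, among them the ER oxidoreductase Dnajc10, the Hsp70 relative Hspa13, the cytosolic J proteins Dnaja1, Dnaja4, Dnajb1 and Dnajb6, the inducible Hsp90 gene Hsp90aa1 and the mitochondrial co-chaperonin Hspe1. The falls were in Dnajc13 and Dnajc5, J proteins of endosomes and synaptic vesicles. Rises ran from 0.22 to 0.64 on the log2 scale, so that no called member changed by as much as 1 log2 unit. In bulk tissue, fewer cells of a type and less RNA per cell cannot be told apart.

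Beyond the called probes, 81 of the 118 changes were above 0 (68.6%, against 49.9% of all probes), and the median change was 0.12 over the members and −0.001 over all probes. The 4 Atm-/- NR arrays did not overlap the 4 Atm-/- veh arrays for 35 member probes (29.7%, against 20.2%), and 36 had an unadjusted p under 0.05 (30.5%, against 27.3%). By the brightest kept probe of each gene, 43 of 66 members lay above 0, with 11 called higher and 2 lower and a median of 0.12, where all 16737 named genes had 1117 called higher (6.67%), 803 lower (4.8%) and a median of 0.04. The members were bright: 55 of the 118 lay in the brightest 20% of all kept probes, in which 9.26% of all probes were called higher, against 2.05% to 6.39% in each 20% below. Of the 55, 9 were called higher and 1 lower. Probes above background numbered 39134 to 41905 on the Atm-/- veh arrays and 34945 to 37817 on the Atm-/- NR arrays, without overlap, and the part of brightness or of this difference in the changes was not tested.

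**Figure D1:**
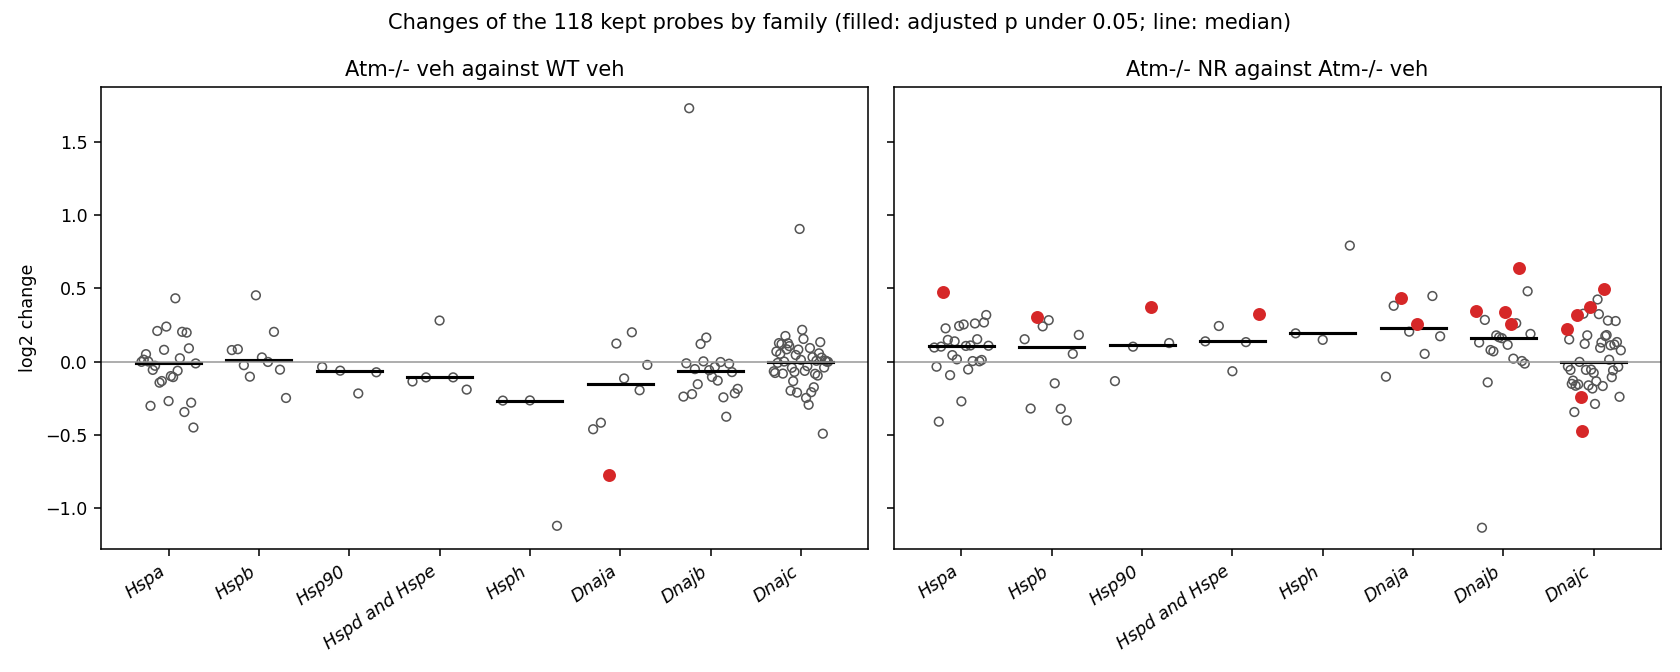
Log2 change of each of the 118 kept member probes by family (x axis), for Atm-/- veh against WT veh on the left and Atm-/- NR against Atm-/- veh on the right; filled points passed an adjusted p of 0.05 and the black lines are family medians over probes. On the left 1 probe is filled, and on the right 16 are, 14 of them above 0.

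The count of 16 moved with the arrays in the fit, between 4 and 20 when 1 array was left out. Among the Atm-/- veh arrays it was 4 without replicate 1, 20 without replicate 2, 11 without replicate 3 and 6 without replicate 4. Among the Atm-/- NR arrays it was 11, 4, 4 and 9 without replicates 1, 2, 3 and 4. Without any 1 WT array it lay between 14 and 20. With every array in the fit, 3366 of all probes were called. Without Atm-/- veh replicates 1, 2, 3 and 4 this number was 854, 4279, 2267 and 1323. Without Atm-/- NR replicates 1, 2, 3 and 4 it was 2730, 1481, 887 and 1993. The member count thus moved with the calls over all probes. Without Atm-/- NR replicate 2, the 4 members were a smaller share than the 3.97% of all probes. In every other fit with 1 array left out, the member share was the larger. Without the 4 arrays that lacked Y-linked signal, 1 member probe was called, that of Dnajc10, while the share over all probes went to 1.04%. Dnajc10, Hspa13, Dnajb6 and Dnajc13 were called whichever of the 16 arrays was left out, and each of the other 12 genes lost its call without at least 1 array.

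Among the Hsp70 proteins (Hspa, 13 genes and 25 probes), 1 probe was called between Atm-/- NR and Atm-/- veh, that of Hspa13, and 20 of 25 changes lay above 0. This count and those of the families below stand beside 9.04% of all kept probes called in this comparison (4.56% higher and 4.48% lower). Of all kept probes, 49.9% changed above 0. Hspa13 is a short Hsp70 relative associated with microsomes. Its log2 signal was 11.57, 11.78, 11.65 and 11.53 on the Atm-/- veh arrays and 12.07, 12.06, 12.24 and 12.07 on the Atm-/- NR arrays. WT veh arrays read 11.80, 12.04, 11.96 and 11.93, and WT NR arrays 11.86, 12.18, 12.19 and 12.13. The Atm-/- veh arrays were the 4 lowest of the 16, and the Atm-/- NR arrays lay within the range of WT NR except for replicate 3, which lay above it. Hspa13 rose by 0.48 (SE 0.09, limma adjusted p = 0.0114) in Atm-/- NR against Atm-/- veh, and differed by −0.30 between Atm-/- veh and WT veh (adjusted p = 0.211).

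The abundant and the stress-inducible Hsp70 genes did not pass the test. Hspa8, the constitutive Hsc70, lay between 16.66 and 16.90 on every array, with a change of 0.02 (adjusted p = 0.90) in Atm-/- NR against Atm-/- veh. Inducible Hsp70 is made by Hspa1a and Hspa1b, whose near-identical sequences a probe may not tell apart. Hspa1a differed by 0.04 (adjusted p = 0.83) and Hspa1b by 0.32 (adjusted p = 0.32). Hspa1b read 9.06, 9.22, 9.63 and 9.11 in Atm-/- veh and 9.36, 9.66, 9.71 and 9.57 in Atm-/- NR, so that the groups overlapped, and WT veh alone ran from 9.29 to 10.27. Hspa4, a nucleotide exchange factor of the Hsp110 type, differed by 0.14 (adjusted p = 0.32), its relative Hspa4l by 0.25 (adjusted p = 0.0604), and mitochondrial Hspa9 by −0.03 (adjusted p = 0.82). Hspa12a, a divergent Hsp70 found in brain, differed by 0.15 (adjusted p = 0.46), Hspa2, best known from testis, by −0.27 (adjusted p = 0.37), and the testis gene Hspa1l by −0.41 (adjusted p = 0.33), on a probe with log2 signals from 3.99 to 5.67. The Hspa1l value was −0.15 without Atm-/- NR replicate 4, −0.25 without Atm-/- veh replicate 2, and from −0.69 under 75th percentile scaling to −0.16 after normexp.

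Hspa5 (BiP), the main Hsp70 of the ER and one of the 3 promoters with an ER stress element, showed how one array can set a value. Its brightest probe read 15.12, 15.13, 15.20 and 15.14 in Atm-/- veh and 15.31, 15.33, 15.60 and 15.32 in Atm-/- NR, a change of 0.24 without overlap that did not pass the test (adjusted p = 0.55). In WT veh it read 13.89, 15.19, 15.15 and 15.39, with replicate 1 far below the rest. For Atm-/- veh against WT veh this gave 0.24 (adjusted p = 0.68) with all arrays and −0.10 without WT veh replicate 1, and for WT NR against WT veh 0.38 with all arrays and 0.04 without it. The 2 other Hspa5 probes were not low on that array, at 12.97 and 12.54, and neither passed the test in any comparison.

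Of the small heat shock proteins (Hspb, 8 genes and 10 probes), Hspb11 was called between Atm-/- NR and Atm-/- veh. Its product is IFT25, a part of the intraflagellar transport complex of cilia, rather than a chaperone of stressed proteins. Hspb11 read 11.89, 11.93, 11.64 and 11.92 in Atm-/- veh and 12.16, 12.17, 12.06 and 12.22 in Atm-/- NR, so every treated array was above every untreated one. The rise was 0.31 (SE 0.08, adjusted p = 0.0318). The 5 marker genes of ciliated ependyma all changed upward in the same comparison with none called (median 0.74), with mean deviations from −0.95 to 0.07 on the Atm-/- veh arrays and from 0.11 to 0.45 on the Atm-/- NR arrays, and the part of those cells in the Hspb11 change was not tested.

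The classic small heat shock proteins did not pass. Hspb1 (Hsp25), which guards the actin cytoskeleton, differed by −0.32 (adjusted p = 0.44) in Atm-/- NR against Atm-/- veh, and Hspb6, a muscle and brain relative, by −0.40 (adjusted p = 0.0649). Hspb6 read 11.004, 11.08, 11.44 and 11.15 in Atm-/- veh and 10.82, 10.78, 10.86 and 10.62 in Atm-/- NR, which did not overlap. Hspb8, which works with Bag3 in selective autophagy, differed by 0.28 (adjusted p = 0.47), and Hspb2, Hspb3 and Hspb7, found mainly in muscle, by −0.15, 0.24 and 0.05 (adjusted p = 0.46, 0.43 and 0.96). The family median of 0.10 over genes turned negative under 75th percentile scaling, normexp, the deposited z-scores, with no filter on dim probes and without Atm-/- veh replicate 2, with −0.10 as its lowest value.

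Hsp90 has an inducible and a constitutive cytosolic gene and an ER gene. Hsp90aa1, the inducible one, was called on its brightest probe, which read 16.30, 16.54, 16.09 and 16.29 in Atm-/- veh and 16.50, 16.64, 16.77 and 16.79 in Atm-/- NR. The rise was 0.37 (SE 0.10, adjusted p = 0.0294), and it was the only called member probe whose groups overlapped, by Atm-/- veh replicate 2 and Atm-/- NR replicate 1. Its second probe differed by 0.10 (adjusted p = 0.40). In WT mice the brightest probe read 16.52, 16.49, 16.52 and 16.55 without NR and 16.63, 16.79, 16.73 and 16.86 with it, again without overlap, for a change of 0.23 that did not pass (adjusted p = 0.61). Constitutive Hsp90ab1 differed by −0.13 (adjusted p = 0.34) and ER-resident Hsp90b1 by 0.13 (adjusted p = 0.47) in Atm-/- NR against Atm-/- veh.

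The mitochondrial chaperonin pair shares the promoter printed above, and 1 of the 2 genes was called. Hspe1 (Hsp10), the lid of the folding cage, read 14.60, 14.74, 14.41 and 14.62 in Atm-/- veh and 14.83, 14.92, 14.95 and 14.96 in Atm-/- NR, with no overlap. It rose by 0.32 (SE 0.08, adjusted p = 0.0318), and its other probes differed by 0.24 and 0.13 (adjusted p = 0.0997 and 0.33). Hspd1 (Hsp60), the barrel of the cage, read 15.02, 15.25, 15.01 and 15.26 in Atm-/- veh and 15.26, 15.32, 15.28 and 15.24 in Atm-/- NR, which overlapped, with a change of 0.14 (adjusted p = 0.23). Hsph1, the Hsp110 exchange factor, differed by 0.15 (adjusted p = 0.45) on its brightest probe, by 0.19 (adjusted p = 0.40) on the next and by 0.79 (adjusted p = 0.13) on a dim probe, whose log2 signals lay between 3.83 and 6.34.

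**Figure D2:**
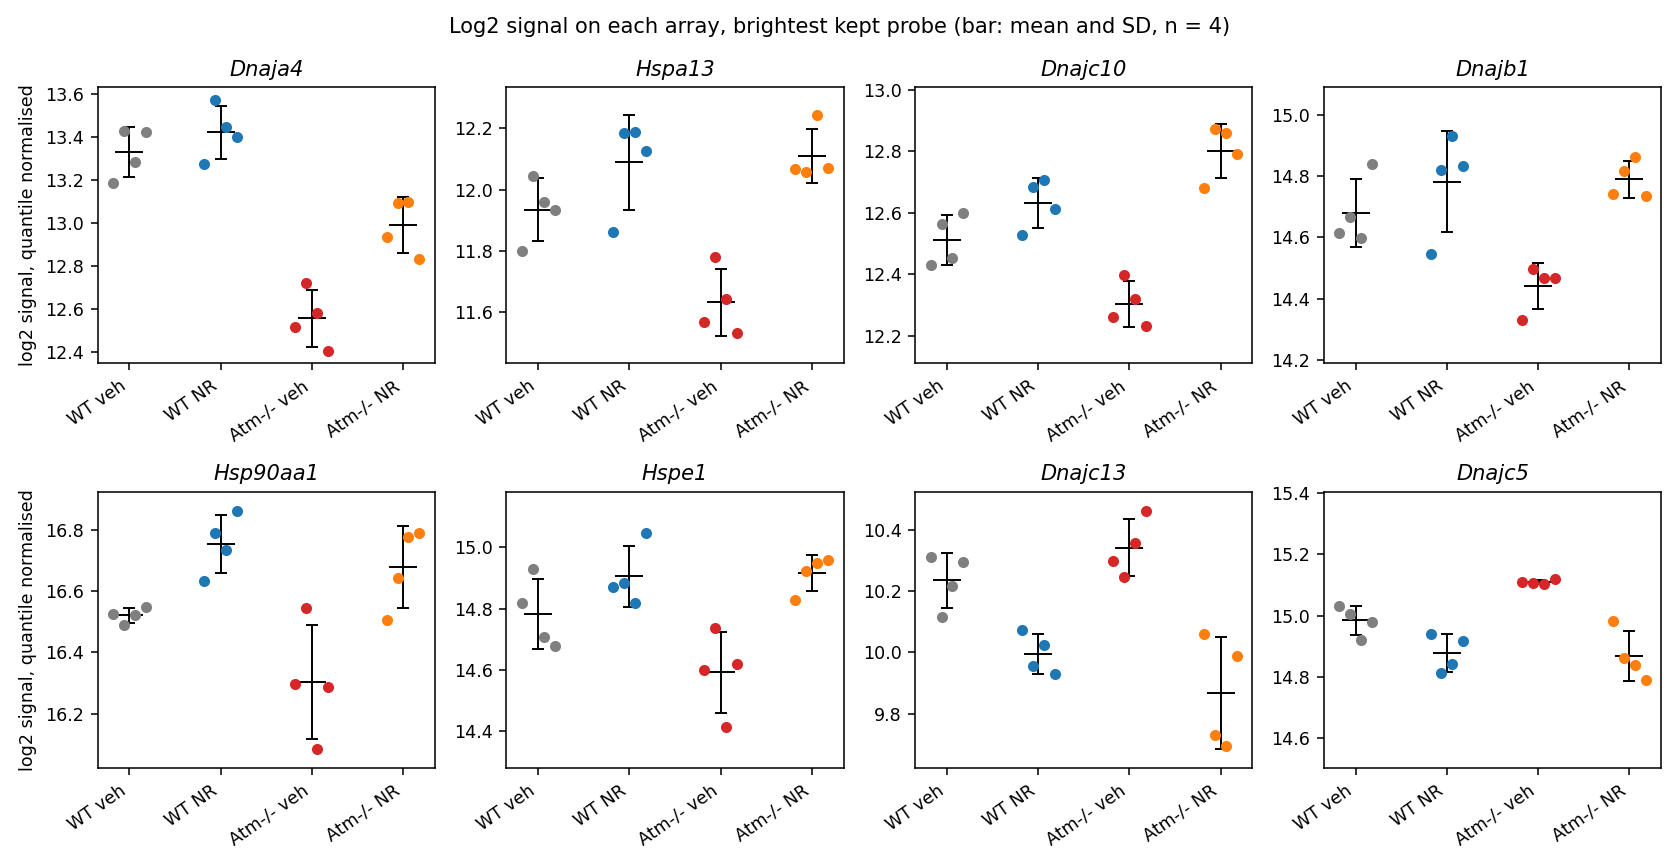
Quantile-normalised log2 signal (y axis) of the brightest kept probe of 8 members on each of the 16 arrays, by group (x axis); bars are mean and SD over 4 arrays. In the first 6 panels the Atm-/- veh mean is the lowest of the 4 groups, and in the panels of Dnajc13 and Dnajc5 it is the highest.

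Among the J proteins of class A (Dnaja, 4 genes and 8 probes), 2 were called between Atm-/- NR and Atm-/- veh and 7 of 8 changes lay above 0. Dnaja1, a general partner of Hsc70 in the cytosol, read 14.59, 14.67, 14.58 and 14.79 in Atm-/- veh and 14.84, 14.92, 14.98 and 14.92 in Atm-/- NR, with no overlap. It rose by 0.26 (SE 0.07, adjusted p = 0.0390), and its 2 dim probes differed by 0.38 and 0.45 (adjusted p = 0.12 and 0.10). Dnaja2, its closest relative, differed by 0.17 (adjusted p = 0.14), and mitochondrial Dnaja3 by 0.05 (adjusted p = 0.78).

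Dnaja4, another cytosolic partner of Hsp70, was the only member called in 2 comparisons. Its log2 signal was 13.19, 13.43, 13.28 and 13.42 in WT veh, 13.27, 13.57, 13.45 and 13.40 in WT NR, 12.52, 12.72, 12.58 and 12.41 in Atm-/- veh and 12.94, 13.09, 13.10 and 12.83 in Atm-/- NR. Every Atm-/- array was thus below every WT array, and every treated Atm-/- array was above every untreated one. Dnaja4 was lower in Atm-/- veh than in WT veh by a log2 change of −0.77 (SE 0.10, adjusted p = 0.00403), which is a ratio of 0.585, and higher in Atm-/- NR than in Atm-/- veh by 0.43 (adjusted p = 0.0177). Between Atm-/- NR and WT NR it differed by −0.43 (adjusted p = 0.236), without overlap. These comparisons share the Atm-/- veh or Atm-/- NR arrays. Its dim second probe differed by −0.46 (adjusted p = 0.20) between Atm-/- veh and WT veh and by −0.10 (adjusted p = 0.64) between Atm-/- NR and Atm-/- veh.

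Dnaja4 lies within 20 Mb of Atm, and so do Hspa8 and Hspb2. In each genotype comparison 12 of the 540 kept probes in that window were called (2.22%), against 8 of 36713 elsewhere (0.0218%). Hspa8 differed by 0.08 between Atm-/- veh and WT veh and by 0.06 between Atm-/- NR and WT NR, and Hspb2 by 0.03 and 0.25, none of which passed (lowest adjusted p = 0.58). The part of sequence linked to the targeted allele in the Dnaja4 difference was not tested.

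Of the class B J proteins (Dnajb, 10 genes and 20 probes kept), 4 probes were called higher in Atm-/- NR than in Atm-/- veh and 17 of 20 changes lay above 0. Dnajb1 (Hsp40), the classic partner of inducible Hsp70, read 14.33, 14.50, 14.47 and 14.47 in Atm-/- veh and 14.74, 14.82, 14.86 and 14.74 in Atm-/- NR. Every treated array exceeded every untreated one, and the rise was 0.35 (SE 0.09, adjusted p = 0.0279). Dnajb11, an ER partner of BiP, read 13.01, 13.00, 12.96 and 13.07 against 13.32, 13.16, 13.43 and 13.16, a rise of 0.26 (SE 0.07, adjusted p = 0.0401), with 0.13 (adjusted p = 0.31) on its other kept probe.

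In Dnajb6 and Dnajb4 the called probe was not the brightest one, and the probes of the gene did not move alike. Dnajb6, which holds back aggregation of polyglutamine proteins, rose by 0.34 (SE 0.06, adjusted p = 0.0104) on its second brightest probe, from 12.64, 12.76, 12.70 and 12.66 in Atm-/- veh to 13.02, 12.99, 13.10 and 13.00 in Atm-/- NR. Its brightest probe differed by 0.00 (adjusted p = 0.98) and the other 3 by 0.17, 0.18 and 0.48 (adjusted p = 0.39, 0.30 and 0.0762). Dnajb4, a cytosolic relative of Dnajb1, rose by 0.64 (SE 0.18, adjusted p = 0.0375) on a dimmer probe, from 8.98, 9.51, 8.83 and 8.88 to 9.65, 9.66, 9.82 and 9.64, while its brightest probe differed by 0.08 and the third by 0.07 (adjusted p = 0.58 and 0.65). Dnajb2, a neuronal J protein, and Dnajb9, an ER J protein that restrains the unfolded protein response, differed by 0.02 and −0.01 (adjusted p = 0.92 and 0.93). Dnajb8, known from testis, gave the widest change of the brightest probes at −1.14 (adjusted p = 0.17), on log2 signals from 5.17 to 8.67 with overlapping groups, and −0.74 without Atm-/- NR replicate 3.

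The class C J proteins (Dnajc, 25 genes and 43 probes kept) are a mixed class with tasks in many compartments, and their changes had no common side: 21 of 43 lay above 0, 4 were called higher and 2 lower. Dnajc10 (ERdj5), which reduces disulphide bonds of misfolded proteins bound for degradation, had the lowest adjusted p of all members. It read 12.26, 12.40, 12.32 and 12.23 in Atm-/- veh and 12.68, 12.87, 12.86 and 12.79 in Atm-/- NR, and 12.43, 12.56, 12.45 and 12.60 in WT veh and 12.53, 12.69, 12.71 and 12.61 in WT NR. The Atm-/- veh arrays were the lowest 4 of the 16. The rise was 0.50 (SE 0.07, adjusted p = 0.00574), and it was called without any 1 of the 16 arrays and in every other fit of single probes with limma. Its 2 dim probes differed by 0.32 and −0.18 (adjusted p = 0.19 and 0.85), and the mean of all 3 probes by 0.21 (adjusted p = 0.41).

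The ribosome-linked members Dnajc2 and Dnajc21 and the mitochondrial Dnajc15 also rose. Dnajc2, which docks Hsp70 at the ribosome exit, read 9.42, 9.64, 9.58 and 9.58 in Atm-/- veh and 9.88, 9.98, 10.04 and 9.81 in Atm-/- NR, a rise of 0.37 (SE 0.08, adjusted p = 0.0189). Dnajc21, which takes part in maturation of the large ribosomal subunit, rose by 0.32 (SE 0.08, adjusted p = 0.0314) on its dimmest probe, from 9.65, 9.76, 9.87 and 9.85 to 10.14, 10.19, 10.06 and 10.03, and differed by 0.28 and 0.12 (adjusted p = 0.0558 and 0.38) on the other 2. Dnajc15, a J protein of the inner mitochondrial membrane, read 14.01, 13.97, 13.95 and 14.06 against 14.28, 14.15, 14.21 and 14.25, a rise of 0.22 (SE 0.06, adjusted p = 0.0373). Treated and untreated Atm-/- arrays did not overlap for any of these 3 probes.

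The 2 falls were in proteins of vesicle traffic. Dnajc13 (RME-8), which acts with Hsc70 on endosomes, read 10.30, 10.25, 10.36 and 10.46 in Atm-/- veh and 10.06, 9.73, 9.69 and 9.99 in Atm-/- NR. It fell by 0.47 on the log2 scale (SE 0.09, adjusted p = 0.0118). Dnajc5 (cysteine string protein), which protects SNARE proteins on synaptic vesicles, read 15.11, 15.11, 15.10 and 15.12 in Atm-/- veh and 14.98, 14.86, 14.84 and 14.79 in Atm-/- NR. It fell by 0.24 (SE 0.06, adjusted p = 0.0281), with the untreated arrays above all 12 others. For Dnajc13 and for Dnajc5 the other kept probe was not called. Dnajc6 (auxilin), which starts the uncoating of clathrin vesicles, differed by 0.13 (adjusted p = 0.60), and Dnajc3, an ER J protein whose promoter is printed above, by −0.04 (adjusted p = 0.90). Dnajc7, which links Hsp70 and Hsp90, differed by 0.09 (adjusted p = 0.42).

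**Figure D3:**
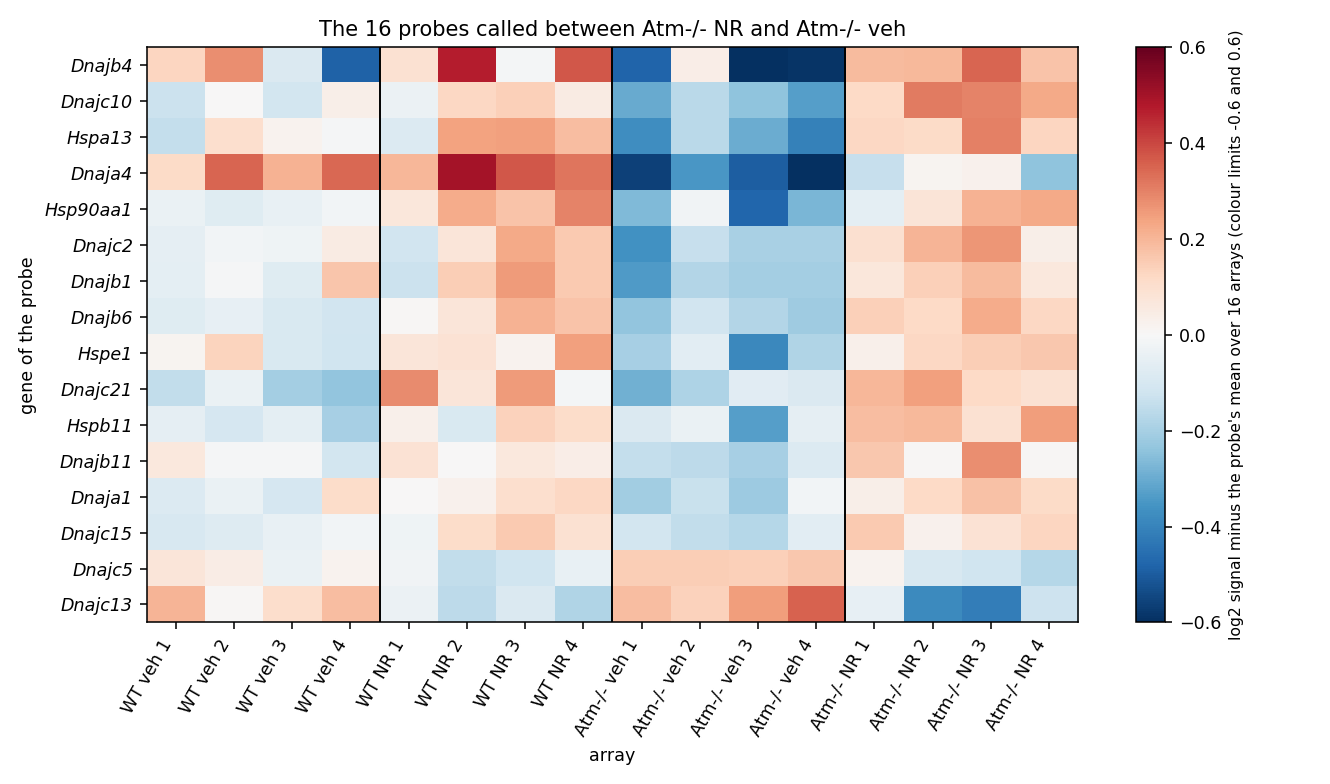
Log2 signal minus the mean of the probe over the 16 arrays (colour, limits −0.6 and 0.6) for the 16 probes called between Atm-/- NR and Atm-/- veh (rows, by gene), on each array (columns, by group). The Atm-/- veh columns are mostly blue in the 14 upper rows and red in the rows of Dnajc5 and Dnajc13.

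How the 16 called genes stood in the other groups was then compared. For 13 of the 14 called rises the Atm-/- veh mean was the lowest of the 4 group means, and the highest was Atm-/- NR for 11 and WT NR for 3. Against WT veh the 14 probes differed by −0.77 to 0.00 in Atm-/- veh, 13 of them below 0, and Dnaja4 alone was called. The rise and this difference share the 4 Atm-/- veh arrays. Of the 16 genes, 12 had several kept probes, which all changed to one side of 0 in 10 of them, and in none were all of them called.

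In WT mice NR gave no called member (0 of 118, and 0 of all 37253 probes, 0%), with an unadjusted p under 0.05 for 17 (14.4%, against 7.62%). The 14 probes that rose in Atm-/- mice all changed above 0 in WT mice as well, by 0.06 to 0.31 (lowest adjusted p = 0.494). By the brightest probe, the highest changes were in Hspa5, Hspb8 and Dnaja3 (0.38, 0.32 and 0.28; adjusted p = 0.77, 0.81 and 0.58) and the lowest in Hspa2, Hspb2 and Hspb1 (−0.48, −0.37 and −0.30; adjusted p = 0.60, 0.55 and 0.84). The Hspb1 value was −0.06 without WT veh replicate 1 and −0.49 without WT veh replicate 3, and the Hspa2 value −0.29 without WT veh replicate 4. The Hspb8 value reached 0.50 at most when 1 array was left out.

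The difference between the NR effects in Atm-/- and WT mice was tested within the same fit. It passed for 0 of the 118 members and 0 of all probes (0%), and had an unadjusted p under 0.05 for 4 members (3.39%, against 5.27%), which were Hspa13, Dnaja4, Dnajc10 and Dnajc2. The differences (Atm-/- minus WT) were 0.38 for Dnajc10 (SE 0.10), 0.34 for Dnaja4 (SE 0.13), 0.32 for Hspa13 (SE 0.13) and 0.28 for Dnajc2 (SE 0.12), with an adjusted p of 0.839 for each. A response of the chaperones to NR that depends on genotype was therefore not shown. The widest differences by brightest probe were 0.53 in Hspa1b, −1.13 in Dnajb8, −0.31 in Hspb6 and −0.23 in Dnajc13 (adjusted p = 0.839 each), of which Hspa1b moved to 0.34 without WT veh replicate 4 and Dnajb8 to −0.74 without Atm-/- NR replicate 3.

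Genotype alone called few members. Between Atm-/- veh and WT veh 1 of 118 was called, Dnaja4 (0.847%, against 20 of all probes or 0.0537%), and 18 had an unadjusted p under 0.05 (15.3%, against 14.6%). The groups did not overlap for 9 (7.63%, against 7.6%), and 46 changes lay above 0 (39%, against 49.3%). By the brightest probe, the widest uncalled changes were in Dnajb8 (1.73), Hspb8 (0.45), Hspa1b (−0.45) and Hspa12a (−0.34), with adjusted p from 0.21 to 0.40. The dim probe of Hsph1 differed by −1.12 (adjusted p = 0.20) and its other probes by −0.27 each (adjusted p = 0.33 and 0.41). Hspa12a read 14.06, 13.90, 14.07 and 14.60 in WT veh and 13.81, 13.80, 13.71 and 13.93 in Atm-/- veh. Its groups overlapped, and its change moved to −0.20 without WT veh replicate 4, the array with the choroid plexus signal. Without that array the Hspa1b change was −0.26, and without Atm-/- veh replicate 3 the Hspb8 change was 0.69.

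Between Atm-/- NR and WT NR no member was called (0 of 118, against 0.0537% of all probes), and 4 had an unadjusted p under 0.05 (3.39%, against 5.21%). These were both probes of Dnaja4, 1 of Hsp90aa1 (−0.19, adjusted p = 0.89) and Dnajc10 (0.17, adjusted p = 0.93). The highest changes by brightest probe were in Dnajb8, Hspb8 and Hspb2 (0.60, 0.41 and 0.25), and the lowest after Dnaja4 in Dnajc6 and Hspa12a (both −0.19), with 0.958 as the lowest adjusted p. Leaving out 1 array moved Dnajb8 between 0.29 (without Atm-/- NR replicate 4) and 0.99 (without Atm-/- NR replicate 3), and Dnajc6 to −0.08 without Atm-/- NR replicate 4.

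Sorted by compartment instead of family, the members gave uneven counts, which stand beside 6.67% higher and 4.8% lower over all named genes for Atm-/- NR against Atm-/- veh. Of 11 classic heat shock factor 1 targets, 4 were called higher in Atm-/- NR than in Atm-/- veh (Hsp90aa1, Hspe1, Dnaja1 and Dnajb1) and none lower, 9 changes lay above 0 and the median was 0.15. Against WT veh, Atm-/- veh had 1 of the 11 above 0 and a median of −0.14, with none called. The mean deviation of these 11 genes was −0.18, −0.10, −0.10 and −0.07 on the Atm-/- veh arrays and −0.04, 0.04, 0.10 and 0.00 on the Atm-/- NR arrays, so the groups did not overlap. On the WT veh arrays it was 0.12, −0.05, −0.09 and 0.20, with replicate 4 the highest of all 16, and 3 of the 4 Atm-/- veh arrays lay below every WT veh array.

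Of 10 ER members, 3 were called higher (Hspa13, Dnajb11 and Dnajc10) and 5 changes lay above 0, with a median of 0.06. The mean deviation was −0.11, −0.08, −0.06 and −0.06 in Atm-/- veh and 0.11, 0.02, 0.11 and −0.02 in Atm-/- NR, without overlap. Of 10 mitochondrial members, 2 were called higher (Hspe1 and Dnajc15), 5 lay above 0 and the median was 0.01, a value that changed sign in 4 of 25 settings. Of 4 members listed under synaptic vesicle cycling, among them the endosomal Dnajc13, 2 were called lower (Dnajc5 and Dnajc13), with a median of −0.11. The other members, Hspa8 and Dnajc6, changed above 0, so the lower mean of the list comes from the 2 called genes. Their mean deviation was 0.04, 0.12, −0.01 and 0.07 in Atm-/- veh and −0.01, −0.12, −0.08 and −0.14 in Atm-/- NR, so that all Atm-/- veh arrays lay above all Atm-/- NR arrays, with Atm-/- veh replicate 3 and Atm-/- NR replicate 1 next to each other. The 5 measured genes known mainly from testis gave no call and a median of −0.27. Their mean deviation was 0.31, 0.21, 0.23 and 0.18 in Atm-/- veh, above all 12 other arrays, and −0.03, 0.08, −0.12 and −0.09 in Atm-/- NR. These means include the dim probe of Dnajb8, which alone differed by 1.73 between Atm-/- veh and WT veh (limma adjusted p = 0.21). The median of the 5 genes in that comparison was 0.05 and kept its sign in 20 of 25 settings. Over all named genes the median for Atm-/- NR against Atm-/- veh was 0.04.

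**Figure D4:**
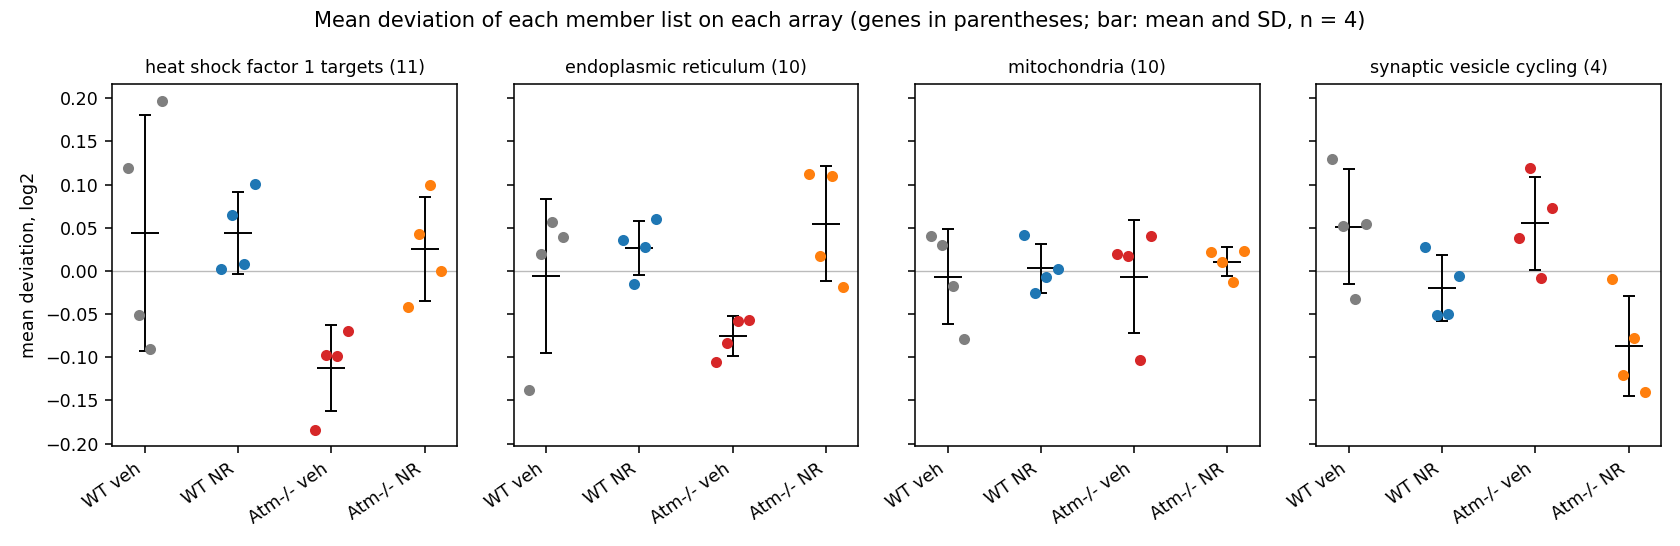
Mean deviation, in log2 units, of the genes of 4 member lists from their own means over the 16 arrays (y axis), for each array by group (x axis), with mean and SD over 4 arrays. The Atm-/- veh points lie below the Atm-/- NR points for the heat shock factor 1 targets and the ER members, and overlap them for mitochondria. They lie above them for the list titled synaptic vesicle cycling, which includes the endosomal Dnajc13.

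Partners of the chaperones outside the naming rule were called in both directions, and their counts too stand beside 6.67% of all named genes called higher and 4.8% lower. Of 31 measured heat shock factors and co-chaperones, 2 were called higher in Atm-/- NR than in Atm-/- veh, the heat shock factor binding protein Hsbp1 (0.33) and the Hsp90 co-chaperone Sugt1 (0.27), and 3 lower. The lower ones were Hsf1, which encodes heat shock factor 1 itself, Bag4, a Hsp70 exchange factor, and Stub1, the ubiquitin ligase CHIP (changes of −0.35, −0.45 and −0.27; adjusted p = 0.0348, 0.0131 and 0.0485). Hsf1 read 12.31, 12.11, 11.87 and 12.20 in Atm-/- veh and 11.83, 11.71, 11.76 and 11.77 in Atm-/- NR, so that every treated array was below every untreated one. The median of the 31 was 0.01. One of them, the small heat shock protein gene Cryab, was the only one called between genotypes, at −1.18 in Atm-/- NR against WT NR (adjusted p = 0.0495) and −1.003 in Atm-/- veh against WT veh (adjusted p = 0.106). These Cryab differences cannot be told apart from slide, and the part of sequence linked to the targeted allele in them was not tested.

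Of 15 genes of the cytosolic chaperonin and prefoldin, which fold actin and tubulin, 1 was called higher in Atm-/- NR than in Atm-/- veh, Cct6a (0.50, adjusted p = 0.00680), 11 lay above 0 and the median was 0.16. Of 22 genes of ER folding and the unfolded protein response, 4 were called higher and none lower: the disulphide isomerase Pdia6 (0.55), the stress transcription factor Xbp1 (0.39), the secreted factor Manf (0.34) and the degradation adaptor Sel1l (0.25), with adjusted p from 0.0120 to 0.0429, and 17 of 22 lay above 0 with a median of 0.08. Of 14 genes of mitochondrial protein quality control, the protease subunit Afg3l2 (0.42) and the iron-sulphur co-chaperone Hscb (0.48) were called higher (adjusted p = 0.0262 and 0.0441), and the median was 0.02. Of 58 marker genes measured for the cell types of the tissue and for neuronal activity, Car8 of Purkinje cells (1.10) and Pdgfrb of pericytes (−0.45) were called between Atm-/- NR and Atm-/- veh. The mean deviation of the 6 Purkinje cell genes was −0.04 in Atm-/- veh and 0.16 in Atm-/- NR. That of the 5 smooth muscle and pericyte genes was −0.14 and 0.07, opposite in direction to Pdgfrb. For both lists the arrays of the 2 groups overlapped. The part of cell types and neuronal activity in the chaperone changes was not tested.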

How the data were processed

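Total RNA was hybridised to 16 single-colour (Cy3) Agilent arrays, 1 per mouse. The authors deposited scanner files from Feature Extraction 12.0.3.1, whose spot intensity has the local background subtracted and is not normalised between arrays, together with a z-score for each spot. This score, scaled within each array by the authors, differed by at most 0.0076 from the quantile-normalised log2 intensity scaled within each array.

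Probes were named through their accessions with RefSeq genes of assembly GRCm38.p6; the array was designed on another build, so no probe positions are given. Intensities were taken as log2 and quantile normalised over the spots of the probes that passed the filter on dim probes. They were then freed of outlier spots (788 probes with an array missing were dropped) and averaged per probe. A probe counted as above background on an array when at least 0.5 of its spots did. Groups came from the sample labels. For the 5 comparisons, limma 3.58.1 (R 4.3.3) was fitted to 4 group means over all 16 arrays (12 residual degrees of freedom), with Benjamini-Hochberg adjustment over all 37253 kept probes. The script was checked on simulated data. The number of arrays limits the precision, and the p-values measure the spread between mice.

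The members and lists were chosen with earlier results of these data known, and 5 member lists, 4 lists of partners and 12 marker lists are described by counts and medians alone. Genes named are those called in any comparison, the 3 highest and 3 lowest changes of each by the brightest probe, members within 20 Mb of Atm, and family anchors. Alternatives covered 75th percentile scaling, normexp (offset 50) on the median pixel signals, the deposited z-scores, both filters on dim probes, only the compared groups in the fit, the replicate block, gene means, the t-test of the methods, arrays without Y-linked signal, each array left out, and cyclic loess, which was chosen after seeing the data.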

Additional observations from a re-analysis of the deposited data

Results flagged for a closer look

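For 45 probes of named members, each group of 4 arrays was searched for an array lying far from the other 3 (by the gap to its nearest neighbour as a share of the group's range, against Dixon's 95% limit), and 9 of 180 groups had one. Chance alone gives about 1 in 20 groups, and 9 of 180 is that share, so the list as a whole is no more than chance gives. Values are log2 signals.

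Atm-/- NR replicate 3 stood above its group for Hspa5 at 15.5986 (the others 15.31 to 15.33), for Hspa13 at 12.2441 (12.06 to 12.07) and for the called probe of Dnajb4 at 9.8177 (9.64 to 9.66). Atm-/- veh replicate 3, the array with red blood cell genes, stood below its group for Dnajb2 at 14.1986 (14.40 to 14.42), for Hsp90b1 at 15.1115 (15.48 to 15.53) and for Hspb11 at 11.6435 (11.89 to 11.93). WT veh replicate 1 stood below its group for Hspa5 at 13.8949 (15.15 to 15.39). Atm-/- NR replicate 2 was low for the brightest Dnajb6 probe at 14.3432 (14.40 to 14.41), and Atm-/- NR replicate 4 was high for Hspb8 at 11.4319 (11.03 to 11.10).

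WT veh replicate 1 was also low on single probes of other members whose remaining probes were not low there. On a dim probe of Dnajc10 it read 6.07 where the other WT veh arrays read 8.92, 9.15 and 9.25, on the dim Hspd1 probe 11.51 against 12.42, 12.51 and 12.48, and on the dim Dnaja3 probe 13.09 against 13.97, 14.12 and 13.91. These were noticed by inspection and were not searched for in the other arrays.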

How the results depend on the processing

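The member probes called between Atm-/- NR and Atm-/- veh, 16 as reported, numbered 15 to 20 under 75th percentile scaling, normexp, the deposited z-scores, either filter on dim probes and cyclic loess. They came to 10 with only the compared groups in the fit (9 of them among the 16), 8 genes with the mean of each gene's probes, 39 with the t-test of the methods before adjustment and 14 after Benjamini-Hochberg, 1 without the arrays lacking Y-linked signal, and 4 to 20 when 1 array was left out, with fewer arrays in the fit in these last cases. Over all probes the share called was 10.9% under 75th percentile scaling, 9.8% with normexp and 10% with the deposited z-scores. It was 6.57% with no filter on dim probes and 11.9% with only probes above background on all arrays. With only the compared groups it was 6.77%, without the arrays lacking Y-linked signal 1.04%, and with 1 array left out 2.29% to 11.8%. No such share stands beside the counts from gene means, the t-test and cyclic loess. Those counts therefore say nothing about the members in particular. Before adjustment limma called 36 member probes (30.5%, against 27.3% of all probes), where the t-test gave 39. For Atm-/- veh against WT veh, 1 as reported, the count was 0 with only the compared groups, 14 with the unadjusted t-test, 0 with its adjusted form and 1 without any 1 array. The unadjusted t-test gave 8 for Atm-/- NR against WT NR and 14 for WT NR against WT veh, where every other setting gave 0. Among 1068 recomputed gene changes, 963 kept direction and call, 104 kept direction and lost the call, and 1 turned, Hspa5 in Atm-/- veh against WT veh, at −0.098 without WT veh replicate 1 and up to 0.401 without WT veh replicate 4. The cause of the other differences was not tested.

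Replicate numbers do not pair the mice: for Atm-/- NR against Atm-/- veh same-numbered arrays correlated at −0.0986 to 0.161. With the replicate number as a block, 15 member probes were called there (13 of them among the 16), 1 for Atm-/- veh against WT veh and 0 in each other comparison.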
